A study of Mus musculus with 8 samples.

Results

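The vitamin D receptor gene *Vdr*, a partner gene, *Rxra*, and 8 genes of vitamin D metabolism and calcium handling were followed in mouse kidney tubuloids. There, *Vdr* RNA was higher in every culture given a pulse of GDNF than in every control. The 10 genes were chosen by name, with measured values of the GDNF and control cultures already known, so all differences between the groups in these genes are given as a description, with no test. They are 10 of 24063 gene symbols, and 13 of 33068 RefSeq transcripts, in the deposited tables. The other 8 genes are *Cyp24a1*, *Cyp27b1*, *Trpv5*, *Trpv6*, *S100g*, *Atp2b1*, *Atp2b4* and *Casr*.

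Tubuloids are tubular structures that grow from primary kidney tubule fragments in Matrigel, a basement membrane gel. RNA-Seq was available for 8 cultures at day 7, 4 that received glial-derived neurotrophic factor (GDNF) as a pulse of 24 h after plating (cultures 6, 12, 17 and 22) and 4 controls (cultures 3, 7, 14 and 21). Both groups received medium enriched with HGF, EGF, bFGF, serum and ITS supplement throughout, and all 8 cultures came from kidneys of postnatal day 7 to 10 mice with the genotype Pkd2 fl/fl, Pax8rtTA, TetOCre and mTmG. This genotype allows *Pkd2* to be deleted by doxycycline in cells in which the *Pax8* promoter is active, mainly tubular epithelium. Doxycycline belonged to a different experiment of the study, so deletion was not induced in either group here. Whether any *Pkd2* was deleted without doxycycline was not examined. The labels do not say whether each culture came from its own mouse, so that standard errors and p-values measure only the spread between these cultures. Nor do they say whether a control and a GDNF culture shared a preparation. The groups share no culture numbers and were compared as unpaired.

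The vitamin D receptor is a nuclear receptor that binds the hormone calcitriol and acts on DNA as a pair with a retinoid X receptor. *Cyp27b1* encodes the kidney enzyme that makes calcitriol, and *Cyp24a1*, a classical target of the receptor, encodes the enzyme that breaks it down. In the distal convoluted and connecting tubule, calcium enters through the apical channels TRPV5 and TRPV6, is carried across the cell by calbindins such as that encoded by *S100g*, and leaves through pumps of the plasma membrane such as those of *Atp2b1* and *Atp2b4* and through sodium calcium exchange. *Casr* encodes the receptor that senses extracellular calcium.

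Upstream sequences of 4 of the genes are shown because they cover the receptor pair, *Vdr* and *Rxra*, whose RNA did not overlap between the groups, and the calcium carriers *Trpv6* and *S100g*, which are known in mouse as genes that respond to vitamin D. RefSeq promoter entries (build GRCm38.p6) were matched by symbol for 9 of the 10 genes, with 11 entries in all. Each sequence is the 250 bases before the start given by the promoter entry, read 5′ to 3′ on the strand of the gene. That start is not always the outermost start of the gene. The *Rxra* window lies inside the annotated gene, which begins at 27676445. All windows of *Atp2b4* and *Trpv5* also lie inside their genes. For these genes, the bases before the outermost start were not searched. Capitals mark matches, on either strand, to 3 short motifs that were searched without mismatch, and no matches overlap in the windows shown. The GC box, a promoter element bound by Sp1-like factors, was spelled GGGCGG. The TATA box, which places the start of transcription, was spelled TATAAA. The receptor hexamer, which nuclear receptors recognize, was spelled AGGTCA. The windows are *Vdr* at chr15:97908297-97908546 on the minus strand, *Rxra* at chr2:27676951-27677200 on the plus strand, *Trpv6* at chr6:41636406-41636655 on the minus strand and *S100g* at chrX:162964600-162964849 on the minus strand.
Vdr: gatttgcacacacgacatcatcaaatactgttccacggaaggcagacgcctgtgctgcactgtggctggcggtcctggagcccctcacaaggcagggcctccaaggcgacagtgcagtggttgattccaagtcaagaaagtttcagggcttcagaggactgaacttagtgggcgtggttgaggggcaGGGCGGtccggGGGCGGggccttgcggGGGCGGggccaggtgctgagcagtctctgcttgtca
Rxra: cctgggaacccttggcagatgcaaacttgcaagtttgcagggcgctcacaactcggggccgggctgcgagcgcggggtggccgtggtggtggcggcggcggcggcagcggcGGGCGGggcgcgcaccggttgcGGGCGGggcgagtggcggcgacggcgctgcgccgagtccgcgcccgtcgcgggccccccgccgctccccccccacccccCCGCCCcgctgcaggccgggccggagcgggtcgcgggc
Trpv6: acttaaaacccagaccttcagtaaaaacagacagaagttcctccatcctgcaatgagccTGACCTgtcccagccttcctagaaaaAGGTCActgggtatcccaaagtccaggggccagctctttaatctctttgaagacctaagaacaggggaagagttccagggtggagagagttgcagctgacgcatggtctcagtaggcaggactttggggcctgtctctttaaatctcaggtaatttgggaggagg
S100g: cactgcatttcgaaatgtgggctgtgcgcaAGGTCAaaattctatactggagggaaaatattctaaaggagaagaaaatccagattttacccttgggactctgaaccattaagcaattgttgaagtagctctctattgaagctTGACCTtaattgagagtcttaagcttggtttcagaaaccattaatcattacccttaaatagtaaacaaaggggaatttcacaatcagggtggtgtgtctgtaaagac

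The *Vdr* window held 3 GC boxes, which began 63, 52 and 36 bases before the start, and 61.2% of its bases were G or C. That of *Rxra* also held 3 GC boxes, with 81.2% G or C. Neither had a hexamer. The windows of *Trpv6* and *S100g* had no GC box and 2 hexamers each, which began 191 and 165 bases before the start in *Trpv6* and 220 and 107 in *S100g*, where only 38.4% of the bases were G or C. Among all 32851 windows of this length, 32.7% held a GC box, 14% the hexamer and 12.4% the TATA box, and the median content of G and C was 52.4%. A GC box was found in 3 of the 9 genes with an entry (*Vdr*, *Rxra* and *Atp2b1*), a hexamer in 3 (*Rxra* at its second start, *Trpv6* and *S100g*) and a TATA box in 1 (*Trpv5*). The element that the receptor pair is known to bind, the direct repeat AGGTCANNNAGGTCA, was searched on both strands with up to 2 mismatches and was found in 0 of the 9 genes and in 2.6% of all windows. With up to 3 mismatches it was found in 3 of the 9 genes and in 19.1% of all windows. These matches describe the letters of the windows only, and enhancers outside them were not searched.

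Total counts were between 72991721 and 97490625 per culture, and the log expression of any 2 cultures correlated with r of 0.968 to 0.994. The TMM factor, which corrects the total for RNA composition, was 0.79 in control culture 3 and 0.963 to 0.982 in the other controls, compared with 1.07 to 1.11 in the GDNF cultures. Across 16557 genes tested, edgeR's quasi-likelihood test called 0 (0.0%) at an adjusted p of 0.05, the smallest being 0.167. At an unadjusted p of 0.05 it called 1531 genes (9.25%) higher and 2134 (12.9%) lower after GDNF. Without the composition correction the split turned to 3299 higher and 850 lower. DESeq2 gave an adjusted p to 8889 genes and called 186 (2.09%) higher and 1067 (12%) lower at an adjusted p of 0.05. The median log2 fold change of all genes was 0.03 with TMM and 0.25 with library size only.

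Levels of the 10 genes spanned a wide range in these cultures. TPM divides counts by transcript length and scales them to the same total in each culture, and so allows genes to be compared. By mean TPM over the 8 cultures, *Atp2b1* (23.8±7.38, s.d., *n*=8) and *S100g* (23.7±10.1) came first, then *Vdr* (12.1±5.71), *Trpv6* (6.69±4.56), *Rxra* (6.04±1.61), *Cyp24a1* (2.91±2.07), *Atp2b4* (0.712±0.400), *Cyp27b1* (0.169±0.102), *Casr* (0.0656±0.0735) and *Trpv5* (0.0540±0.0550). *Atp2b1* was above *S100g* in 4 of 8 cultures and *Trpv6* above *Rxra* in 4 of 8, so these neighbors did not differ beyond their spread. The order was firmer from *S100g* to *Vdr*, from *Rxra* to *Cyp24a1*, from there to *Atp2b4* and on to *Cyp27b1*, where each gene was above the next in 8 of 8 cultures. *Vdr* was above *Trpv6* in 7 of 8. *Cyp27b1* was above *Casr* in 6 of 8 and *Casr* above *Trpv5* in 3 of 8. *Trpv5*, the channel usually named for calcium reabsorption in the distal tubule, was thus among the least detected of the 10.

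**Figure D1:**
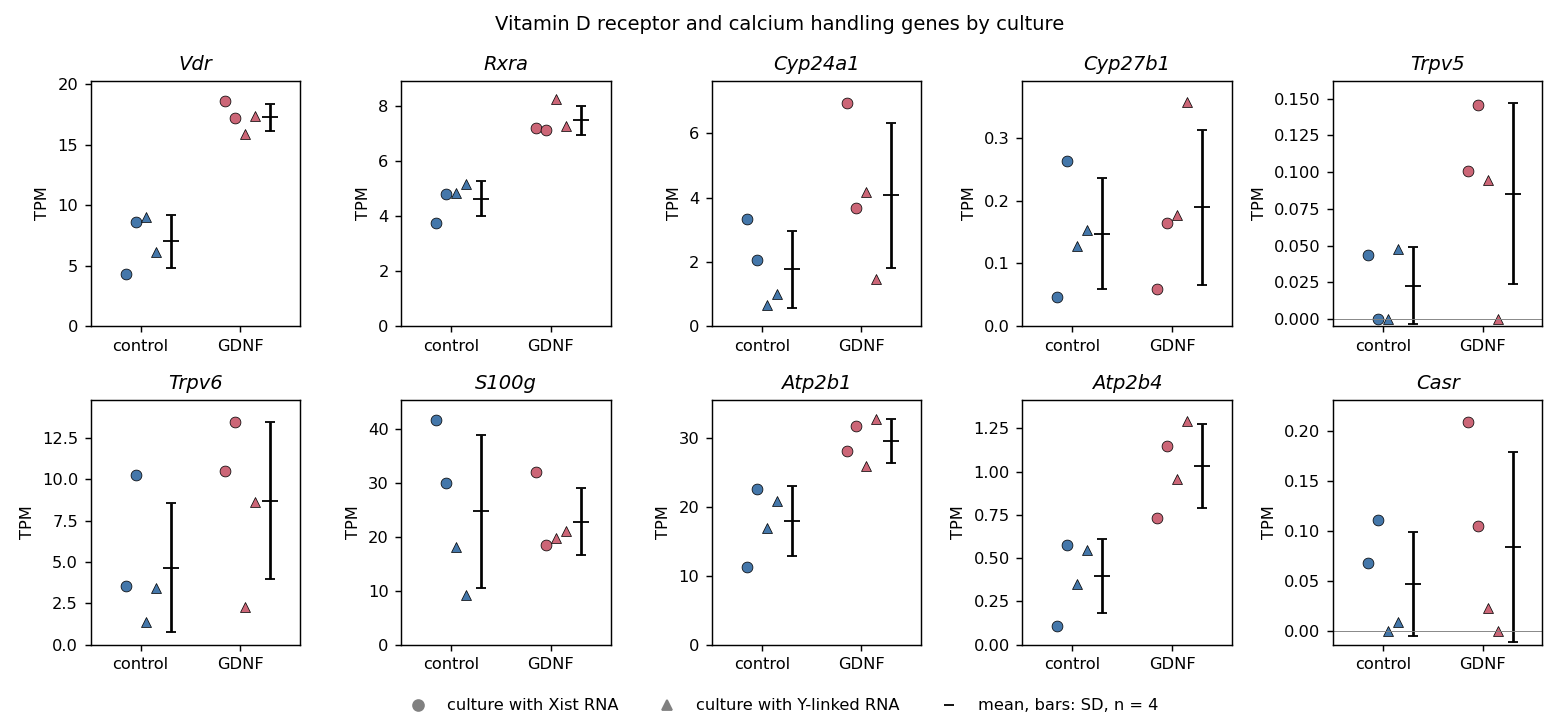
TPM of each gene in each culture (linear axes, one scale per gene; points are cultures, the bar beside them is the mean with SD, n = 4 per group). Circles are cultures with Xist RNA and triangles those with Y-linked RNA. The GDNF cultures of Vdr, Rxra, Atp2b1 and Atp2b4 lay above all controls, while the groups overlapped in the other 6 genes. Of the 13698 genes that averaged 1 TPM or more, 23.4% were also apart in TPM with GDNF above. In CPM, the groups of Atp2b1 overlapped.

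*Vdr* encodes the receptor itself and lies on chromosome 15 at 97854427 to 97908296 of GRCm38. Its counts were 1171, 2230, 2281 and 1303 in control cultures 3, 7, 14 and 21, and 4020, 3757, 3380 and 2884 in GDNF cultures 6, 12, 17 and 22. Its TPM was 4.34, 8.58, 8.99 and 6.16 in these controls, and 18.6, 17.2, 15.9 and 17.4 in these GDNF cultures. The groups did not overlap, and the lowest GDNF culture was above the highest control on all 3 scales of counts, TPM and CPM (counts scaled to a library size corrected by TMM). Mean TPM rose from 7.02±2.18 (s.d., *n*=4) to 17.3±1.10, which is 2.46-fold, and in TPM the GDNF cultures lay closer to each other than the controls did. In CPM the s.d. was more alike, at 4.62 in controls and 3.87 after GDNF. With TMM, the fitted log2 fold change was 0.93±0.18 (s.e.), or 1.91-fold. It was 1.02±0.31 within the cultures with *Xist* RNA and 0.82±0.26 within those with Y-linked RNA, 2 against 2 in each. In bulk RNA, a higher level per cell and a larger share of cells that express the gene cannot be told apart.

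*Rxra*, which encodes 1 of the retinoid X receptors that can pair with the vitamin D receptor, differed in the same direction by less. Its TPM was 3.73, 4.79, 4.82 and 5.16 in control cultures 3, 7, 14 and 21, and 7.20, 7.13, 8.24 and 7.27 in GDNF cultures 6, 12, 17 and 22. The groups did not overlap, also in CPM. The mean was 4.62±0.616 in controls and 7.46±0.525 after GDNF, a ratio of 1.61 on the TPM scale, compared with a fitted log2 fold change of 0.30±0.12 from counts. The files list 3 *Rxra* transcripts whose counts were within 99.0% to 99.9% of each other in every culture, so the same reads were entered for each and the 3 cannot be separated.

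*Cyp24a1*, the enzyme that degrades calcitriol, varied 10.5-fold among the 8 cultures. Its TPM was 3.32, 2.06, 0.661 and 1.01 in control cultures 3, 7, 14 and 21, and 6.95, 3.68, 4.17 and 1.47 in GDNF cultures 6, 12, 17 and 22. The groups overlapped, because control cultures 3 and 7 were above GDNF culture 22. Mean TPM was 1.76±1.20 in controls and 4.07±2.25 after GDNF, and the fitted log2 fold change was 0.71±0.63. The value rested on single cultures, since it was 1.46±0.58 without control culture 3 and 0.27±0.65 without GDNF culture 6. Exons of *Cyp24a1* span 3560 bases, of which 83 are shared with *Pfdn4* on the opposite strand, a prefoldin subunit gene at 148 TPM in controls and 136 TPM after GDNF. The sources used here do not state whether counting used strand, so some *Cyp24a1* counts could come from *Pfdn4*.

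*Cyp27b1*, the enzyme that makes calcitriol, was near the limit of detection. It had 7, 38, 18 and 18 counts in control cultures 3, 7, 14 and 21 and 7, 20, 21 and 33 counts in GDNF cultures 6, 12, 17 and 22. This is 0.148±0.0893 TPM in controls and 0.190±0.124 TPM after GDNF. The groups overlapped, and the fitted log2 fold change was -0.01±0.64. It took either sign when a culture was left out, with 0.41±0.71 without control culture 7 and -0.46±0.70 without GDNF culture 22. The synthesis of calcitriol was thus represented by 7 to 38 counts per culture, while the enzyme of its breakdown had 127 to 1136.

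The 2 apical calcium channels are neighboring paralogs on chromosome 6, and only *Trpv6* was detected well. *Trpv6* had a TPM of 3.52, 10.3, 1.38 and 3.44 in control cultures 3, 7, 14 and 21, and 10.5, 13.5, 2.27 and 8.63 in GDNF cultures 6, 12, 17 and 22. The groups overlapped: GDNF culture 17 was below 3 controls, and control culture 7 was above 2 GDNF cultures. Mean TPM was 4.66±3.89 in controls and 8.72±4.74 after GDNF, and the fitted log2 fold change was 0.52±0.62. It was 1.17±0.60 without control culture 7 and 0.20±0.55 without control culture 14.

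*Trpv5* had 7, 0, 0 and 6 counts in control cultures 3, 7, 14 and 21 and 13, 19, 12 and 0 in GDNF cultures 6, 12, 17 and 22. It was the 1 gene of the 10 that did not pass edgeR's filter on low counts. Controls averaged 0.0227±0.0263 TPM and GDNF cultures 0.0853±0.0612 TPM, and 3 counts, used here as the floor of detection, correspond to 0.0186 to 0.0237 TPM. No fold change is given, since the control mean lies within that range and the groups overlapped.

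*S100g*, which encodes the small calbindin that binds calcium in the cytosol, was the only gene of the 10 with a lower mean TPM after GDNF. Its TPM was 41.6, 29.9, 18.0 and 9.09 in control cultures 3, 7, 14 and 21, and 31.9, 18.4, 19.7 and 21 in GDNF cultures 6, 12, 17 and 22. All 4 GDNF cultures lay within the range of the controls, which itself spanned 4.57-fold. Mean TPM was 24.6±14.1 in controls and 22.8±6.17 after GDNF. The fitted log2 fold change was -0.62±0.50 and fell to -0.03±0.42 without control culture 3. It was -1.03±0.44 within the cultures with *Xist* RNA and 0.26±0.44 within those with Y-linked RNA. The transcript is 480 bp long and lies within *Ctps2* on the opposite strand, with 0 exon bases shared.

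*Atp2b1*, the widely expressed calcium pump of the plasma membrane, was expressed at a level like that of *S100g*. Its TPM was 11.2, 22.6, 17 and 20.9 in control cultures 3, 7, 14 and 21, and 28.1, 31.7, 25.9 and 32.8 in GDNF cultures 6, 12, 17 and 22. The groups did not overlap in TPM, but they did in CPM, where GDNF culture 17 was below control culture 7. The fitted log2 fold change was 0.36±0.15, while mean TPM differed 1.65-fold, 17.9±5.08 against 29.6±3.17.

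*Atp2b4*, another pump of the same family, had a low level and, with TMM and all 8 cultures, the highest fitted value of the 9 genes that passed the filter. This rank was not firm. Without control culture 3, *Cyp24a1* (1.46), *Vdr* (0.84) and *Casr* (0.81) were above it. With the length trend removed *Vdr* was above it, and *Cyp24a1* was (1.49 against 1.04) within the cultures with Y-linked RNA. The TPM of *Atp2b4* was 0.109, 0.574, 0.350 and 0.546 in control cultures 3, 7, 14 and 21, and 0.729, 1.15, 0.955 and 1.29 in GDNF cultures 6, 12, 17 and 22. The groups did not overlap. Mean TPM was 0.395±0.215 in controls and 1.03±0.242 after GDNF, which is 2.61-fold, and the fitted log2 fold change was 1.06±0.38. Control culture 3 was the lowest of the 8, and without it the fitted value was 0.79±0.25. The 2 transcripts listed for *Atp2b4* had counts that differed little, the smaller being at least 96.4% of the larger, so they too hold the same reads.

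*Casr*, the calcium-sensing receptor, had 19, 30, 0 and 2 counts in control cultures 3, 7, 14 and 21 and 47, 24, 5 and 0 in GDNF cultures 6, 12, 17 and 22. Its groups overlapped, and the fitted log2 fold change of 0.42±1.31 turned to -0.60±1.45 without GDNF culture 6. Its counts separated the cultures in another way: the 4 cultures with *Xist* RNA had 19 to 47 counts and the 4 with Y-linked RNA had 0 to 5. All 4 of the former were above all 4 of the latter for 3.31% of the genes tested. These kinds of culture were named from *Xist* and 4 Y-linked genes and are balanced between the groups, with control cultures 3 and 7 and GDNF cultures 6 and 12 holding *Xist* RNA. Of these, control culture 3 and GDNF culture 6 also held 1.5 and 6.46 TPM of summed Y-linked RNA, compared with 116 to 194 TPM in the other kind. The *Xist* kind also has the lower culture numbers, so kind and order of the cultures cannot be told apart.

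Side by side, the groups were apart with GDNF above in 3 of the 9 genes that passed the filter in CPM (*Vdr*, *Rxra* and *Atp2b4*), where 6.99% of all genes tested were apart in this direction and 6.26% in the other. In TPM they were apart in 4 of 10, and in 3 of the 6 that averaged 1 TPM or more, while 23.4% of the 13698 genes that averaged 1 TPM or more were also apart with GDNF above. Since the genes were chosen with this comparison known, nothing is read from either count. By fitted values, 7 of the 9 were higher and 2 lower after GDNF, with a median log2 fold change of 0.42. Mean TPM was higher after GDNF in 9 of 10, but also in 78.6% of the 13698 genes, where the median log2 ratio was 0.40. Changes in TPM are therefore to be read against that shift.

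**Figure D2:**
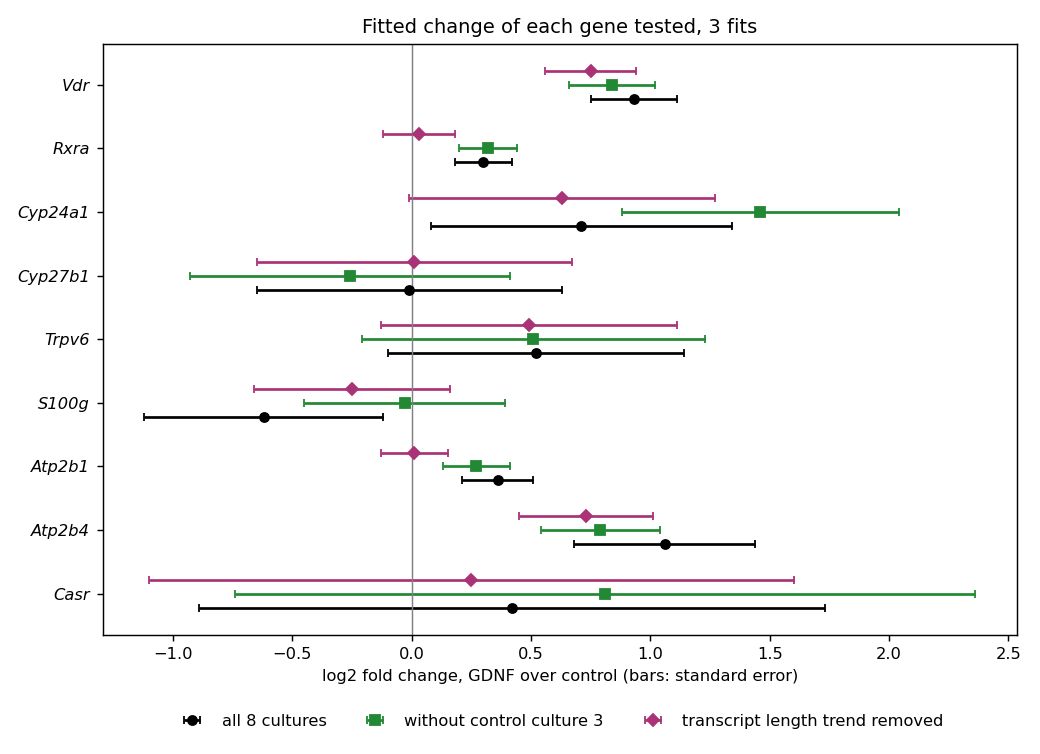
Fitted log2 fold change (GDNF over control, horizontal axis) with its standard error for the 9 genes that passed the filter, in 3 edgeR fits. Vdr and Atp2b4 kept values of at least 0.73 in all 3 fits, Rxra and Atp2b1 were at 0.03 and 0.01 once the transcript length trend was removed, and S100g was at -0.03 without control culture 3.

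Transcript length moved with the comparison and bears on how several of these genes are read. When all genes tested were divided by length into 4 classes of nearly equal size, the median log2 fold change was -0.31 in the shortest class (up to 1632 bp), -0.10 and 0.06 in the middle classes, and 0.30 in the longest (above 4105 bp). Without control culture 3 these were -0.19, -0.04, 0.06 and 0.21. Genes of the shortest class took 42.3%, 36.6%, 33.9% and 30.0% of counts in control cultures 3, 7, 14 and 21, compared with 30.6%, 28.3%, 26.3% and 26.1% in GDNF cultures 6, 12, 17 and 22. *Vdr* (4354 bp), *Casr* (4534 bp), *Rxra* (5267 bp), *Atp2b1* (7130 bp) and *Atp2b4* (8292 bp) are in the longest class and *S100g* in the shortest. The fitted values of *Rxra* and *Atp2b1* were close to the median of their class, while *Vdr* and *Atp2b4* were above the upper quartile of 0.49 there. With a length trend removed from each culture, the log2 fold change was 0.75±0.19 for *Vdr* and 0.73±0.28 for *Atp2b4*, compared with 0.03±0.15 for *Rxra* and 0.01±0.14 for *Atp2b1*. *Cyp24a1* (0.63±0.64) and *Trpv6* (0.49±0.62) moved little, and *S100g* was at -0.25±0.41. Whether length differences arose in the RNA, in the libraries or in the cells was not tested.

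**Figure D3:**
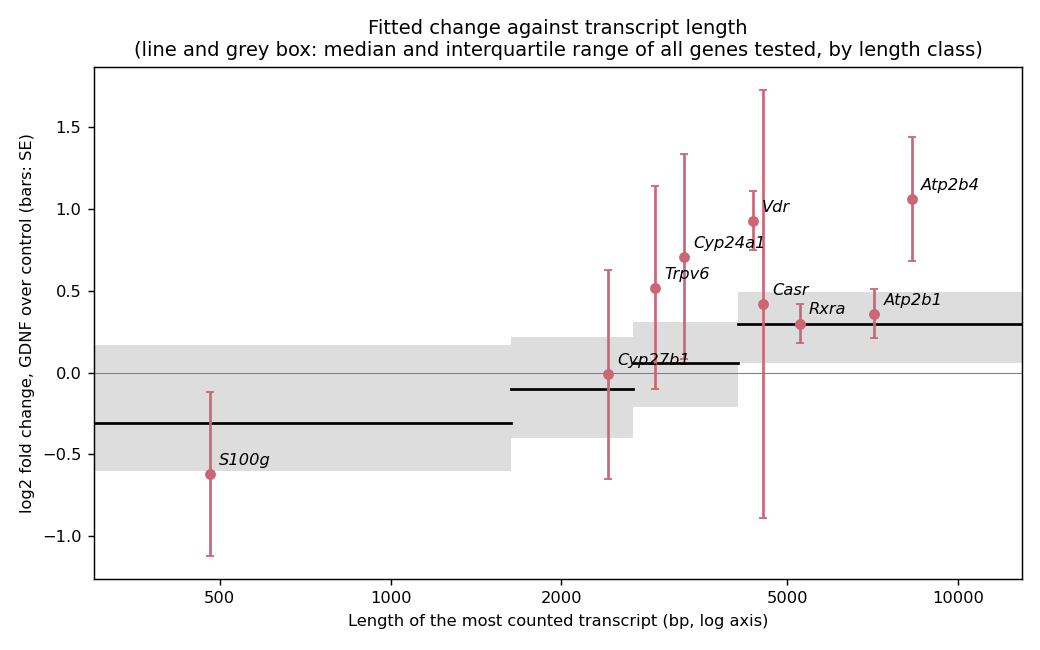
Fitted log2 fold change of each gene (points, bars are standard errors) against the length of its most counted transcript in bp on a log axis, whose limits cut off the outermost classes. Black lines and gray boxes give the median and interquartile range of all genes tested in each length class: medians climb from -0.31 to 0.30, and Vdr and Atp2b4 lie above the box of the longest class, while Rxra and Atp2b1 lie inside it.

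The other genes of these pathways were followed in 7 lists, 98 genes in all, of which 82 were tested. At an adjusted p of 0.05, edgeR called 0 of the 82, with 13 higher and 14 lower at an unadjusted p of 0.05, where 9.25% of all genes were higher and 12.9% lower. DESeq2 gave 52 of them an adjusted p and called 2 higher and 9 lower at 0.05, where 2.09% of all genes were called higher and 12% lower. The median log2 fold change was 0.15 over the 82 genes and 0.03 over all genes, and these became -0.02 and -0.03 with the length trend removed. In what follows, a log2 fold change beside a DESeq2 adjusted p is that of DESeq2, and all others are from edgeR.

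**Figure D4:**
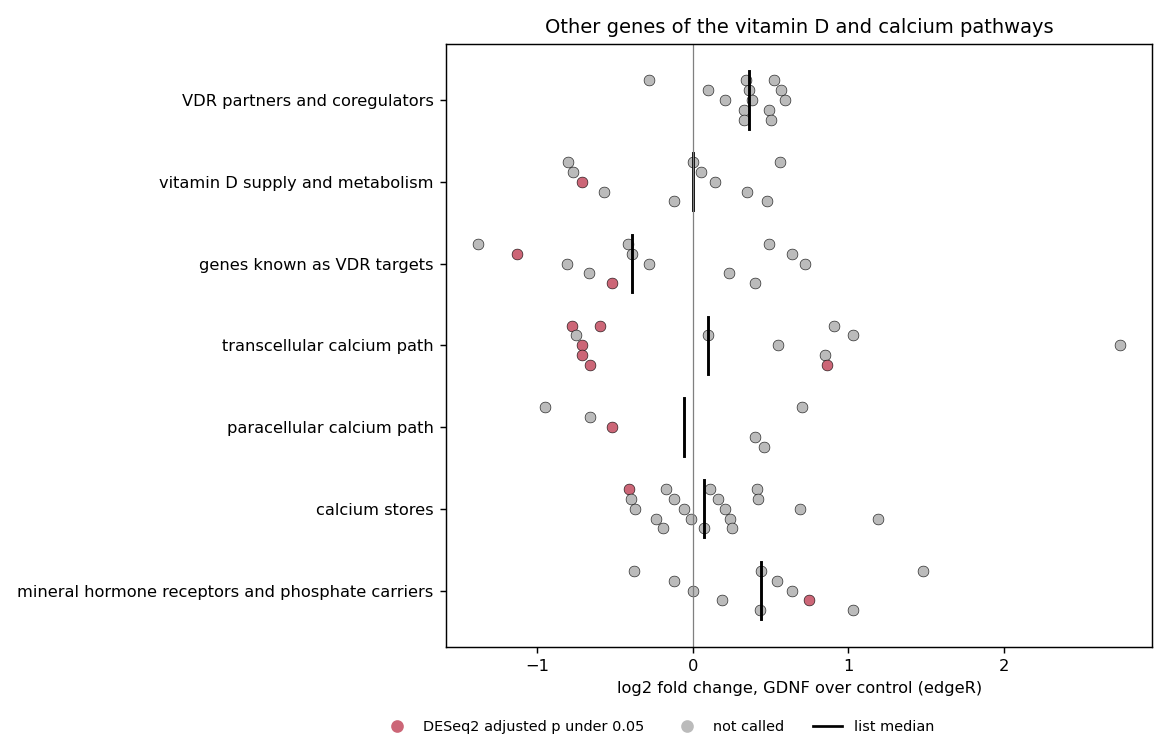
edgeR log2 fold change (GDNF over control, horizontal axis) of each tested gene of the 7 pathway lists, 1 row per list (vertical offsets only separate points). Red points are genes called by DESeq2 and black bars are list medians: the partner list lies almost wholly above 0 with no call, and 5 of the 6 calls of the transcellular list lie below 0.

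Partners and coregulators of the receptor had fitted values mostly above 0, with no call at an adjusted p. Of 13 tested, 12 had a log2 fold change above 0, 7 were higher at an unadjusted p of 0.05 in edgeR (9.25% of all genes), and 0 passed an adjusted p of 0.05 in edgeR or DESeq2. The median was 0.36, which became 0.10 with the length trend removed, and the median length of these genes was 7329 bp. *Rxrb*, which like *Rxra* encodes a possible partner, averaged 26.8±1.79 TPM with GDNF against 17.7±2.81 without it. Its fitted log2 fold change was 0.21±0.13, and its groups overlapped in CPM. Over all 8 cultures its mean was 22.3 TPM, above the 6.04 TPM of *Rxra*, so *Rxra* was not the more abundant of these 2 partners by this measure. Among the most expressed, *Hdac3*, a corepressor deacetylase, was at 58.8±9.32 TPM in controls and 82.0±2.69 after GDNF (log2 fold change 0.10±0.12), *Snw1*, a coactivator that also acts in splicing, at 55.0±7.31 and 59.7±4.40 (-0.28±0.15), and *Smarca4*, an ATPase that remodels chromatin, at 24.0±6.32 and 39.4±4.12 (0.34±0.14).

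For supply and metabolism of vitamin D, 11 genes were tested and the median log2 fold change was 0.00 (0.23 with library size only). *Fdx1*, the ferredoxin that passes electrons to mitochondrial cytochromes such as those of *Cyp27b1* and *Cyp24a1*, was called lower by DESeq2 (log2 fold change -0.73±0.26, adjusted p = 0.0440) and had nearly the same value in edgeR without a call (-0.71±0.24, adjusted p = 0.167). It was at 59.0±7.07 TPM in controls and 48.3±9.92 after GDNF. Its transcript of 861 bp is in the shortest class, and its edgeR value was -0.41 with the length trend removed. *Dab2*, an endocytic adaptor, was at 11.6±2.58 and 16.6±4.31 TPM, and *Gc*, the carrier of vitamin D in plasma, at 8.90±2.37 and 16.7±10.6 TPM. *Lrp2*, which takes up that carrier in the proximal tubule, was at 0.0369±0.0318 and 0.0774±0.0142 TPM.

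Genes known from other work in mouse or human cells as targets of the receptor did not move together. The list joins both species, so a gene in it is not necessarily a target in mouse. Of 13 tested, 5 were above 0 and 8 below, with a median of -0.39, and at an unadjusted p of 0.05 edgeR called 1 higher and 5 lower (9.25% and 12.9% of all genes). The 1 higher was *Lrp5*, a coreceptor of Wnt signaling, at 2.06±0.510 TPM in controls and 4.39±0.585 after GDNF (log2 fold change 0.72±0.17, edgeR adjusted p = 0.167), to which DESeq2 gave no adjusted p. DESeq2 gave an adjusted p to 7 of the 13 and called 2, both lower (12% of all genes): *Thbd*, which encodes the anticoagulant receptor thrombomodulin (log2 fold change -1.15±0.40, adjusted p = 0.0397), and *Cldn12*, a claudin of tight junctions (-0.54±0.20, adjusted p = 0.0498). In edgeR their adjusted p values were 0.174 and 0.169. *Spp1*, the secreted phosphoprotein osteopontin, was by far the most expressed at 16100±4100 TPM in controls and 13700±2900 after GDNF. *Cdkn1a*, a cell cycle inhibitor, was at 180±87.9 and 182±43.0 TPM, and *Txnip*, a thioredoxin-binding protein, at 72.9±7.98 and 112±5.96 TPM. Their log2 fold changes from counts were -0.67±0.29, -0.42±0.38 and 0.23±0.13.

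In the transcellular calcium path, 13 genes were tested, with 7 above 0 and 6 below and a median of 0.10, which was -0.32 with the length trend removed. DESeq2 called 1 higher, *Wnk4*, a kinase that regulates salt and calcium transport of the distal tubule (4.52±1.24 TPM in controls and 10.7±1.54 after GDNF, log2 fold change 0.84±0.23, adjusted p = 0.0244). It called 5 lower, of which 4 are described. *S100a10* and *Anxa2*, whose proteins form a complex that brings TRPV5 and TRPV6 to the membrane, were at -0.79±0.29 (adjusted p = 0.0461) and -0.73±0.24 (adjusted p = 0.0337). The calmodulin genes *Calm2* and *Calm3*, which encode the same protein, were at -0.62±0.17 (adjusted p = 0.0245) and -0.73±0.19 (adjusted p = 0.0209). In edgeR, the adjusted p was 0.167 to 0.174 for *Wnk4* and these 4 genes. The groups of *Wnk4* (GDNF above) and of *Calm2* and *Calm3* (GDNF below) did not overlap in CPM. Among all genes tested, 6.99% were apart with GDNF above and 6.26% with GDNF below. *Wnk4*, *Calm2* and *Calm3* were named for calls in the same comparison, so nothing more is read from this. With the length trend removed in edgeR, *Wnk4* was at 0.71 and these 4 genes between -0.66 and -0.35. *Calb1*, the large calbindin of the connecting tubule, was at 6.45±5.23 TPM in controls and 16.6±18.4 after GDNF (log2 fold change 0.91±0.93). Without GDNF culture 6, its GDNF mean was 7.75±6.05 TPM and its log2 fold change -0.27±0.84.

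Of 6 claudins of the paracellular calcium path, DESeq2 called *Cldn12*, given above, and the median log2 fold change was -0.06, or 0.16 with library size only. *Cldn10*, a claudin whose isoform was not identified here, was at 13.0±10.7 and 9.41±7.06 TPM, and *Cldn2*, the cation pore of the proximal tubule, at 3.92±3.34 and 6.70±4.34 TPM. Among 19 tested genes of calcium stores in the endoplasmic reticulum and mitochondria, the median was 0.07 (-0.07 with the length trend removed) and DESeq2 called 1, *Micu2*, a regulator of the mitochondrial calcium uniporter (log2 fold change -0.43±0.16, adjusted p = 0.0489, edgeR adjusted p = 0.169). *Atp2a2*, the calcium pump of the endoplasmic reticulum, was at 29.1±8.44 and 44.4±8.01 TPM (0.24±0.17), and *Atp2c1*, a pump of the Golgi, at 23.9±4.58 and 31.5±3.25 TPM (-0.01±0.12).

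For mineral hormone receptors and phosphate carriers, 11 genes were tested and the median was 0.44. DESeq2 called *Xpr1*, the phosphate exporter, higher (2.35±0.892 TPM in controls and 5.06±0.967 after GDNF, log2 fold change 0.73±0.25, adjusted p = 0.0361). In edgeR it was at 0.75±0.22 (adjusted p = 0.167), and at 0.39±0.17 with the length trend removed. The most expressed were *Slc20a1*, a phosphate carrier, at 40.1±16.5 and 70.7±23.6 TPM, *Gna11*, a G protein subunit that signals from the calcium-sensing receptor, at 29.9±7.88 and 36.4±1.37, and *Fgfr1*, a receptor for FGF23 together with Klotho, at 22±7.85 and 41.2±7.12. *Kl*, which encodes Klotho, was low, at 0.0802±0.0712 TPM in controls and 0.206±0.0893 after GDNF. The phosphate carriers of the proximal tubule were nearly silent, with *Slc34a1* at 0.0126±0.0189 TPM in controls and *Slc34a3* at 0.0102±0.0204 TPM.

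Some markers of the distal nephron differed between the kinds of culture, and others did not. The *Xist* kind holds the lower culture numbers (3, 6, 7 and 12) and the other kind the higher (14, 17, 21 and 22). A difference between kinds therefore cannot be told apart from one that follows the order of the cultures. The summed TPM of 6 markers of the distal convoluted and connecting tubule was 11.1, 13.8, 2.83 and 3.66 in control cultures 3, 7, 14 and 21 and 44.9, 17.2, 4.45 and 9.78 in GDNF cultures 6, 12, 17 and 22. Most of this sum was *Calb1*, at 10.7, 11.2, 1.23 and 2.67 TPM in these controls and 43.2, 14.3, 2.37 and 6.57 in these GDNF cultures, so that all cultures with *Xist* RNA were above all with Y-linked RNA. The next highest, *Egf*, did not have this order, with 0.217 to 0.775 TPM in the *Xist* kind and 0.463 to 1.78 in the other, and the 2 kinds overlapped in *Slc8a1* too. Principal cell markers summed to 25.5 to 89.8 TPM in the *Xist* kind against 7.07 to 14.5. The kinds were apart in the highest of these markers, *Fxyd4*, *Scnn1b* and *Avpr2*, but not in *Scnn1g*, *Aqp3* or *Aqp2*. *Avpr2* was at 2.55 to 4.43 TPM in the *Xist* kind and 0.611 to 0.969 in the other. *Cyp24a1*, *Trpv6*, *S100g* and *Casr* had higher means in the *Xist* kind within each group. *Cyp24a1* averaged 2.69 against 0.833 TPM in controls and 5.31 against 2.82 after GDNF, *Trpv6* 6.91 against 2.41 and 12 against 5.45, and *S100g* 35.7 against 13.6 and 25.2 against 20.4. *Vdr* had no common order in the 2 groups, with 6.46 against 7.57 TPM in controls and 17.9 against 16.6 after GDNF. Whether the amount of distal tubule cells accounts for any of these values was not tested.

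The cultures held both epithelium and stroma. Epithelial markers summed to 528 to 3940 TPM in controls and 1170 to 1710 after GDNF, led by *Krt18* and *Krt8*, and stromal markers to 375 to 2010 and 465 to 1680, led by *Acta2* and *Vim*. Sums of the other lists were lower, at 4.09 to 12.6 TPM for proximal tubule (*Slc5a2*, *Aqp1*), 1.97 to 6.12 for the thick ascending limb (*Ptger3*, *Umod*), 3.14 to 10.5 for intercalated cells (*Atp6v0d2*, *Foxi1*), 9.28 to 31.3 for endothelium (*Emcn*, *Pecam1*), 4.65 to 41.1 for macrophages (*Lyz2*, *Cd68*) and 8.95 to 67.1 for podocytes (led by *Synpo*). For proximal tubule, most of the sum was *Slc5a2*, at 3.75 to 12.2 TPM. The same held for *Atp6v0d2* (3.08 to 9.75) in intercalated cells and *Emcn* (9.04 to 30.2) in endothelium. These sums thus say little about the other markers of their lists. The highest macrophage sum, in GDNF culture 17, was mostly *Lyz2*. In the thick ascending limb, *Ptger3* and *Umod* had similar means of 1.43 and 1.08 TPM. Of the markers, *Pvalb* of the distal convoluted tubule was at 0 in every culture. *Slc4a1* of intercalated cells had at most 1 count in any culture.

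The genes most like *Vdr* across the 8 cultures were sought by Pearson correlation of log2 CPM over 11454 genes with a mean of at least 5 CPM, which describes a shared pattern that is largely the difference between the groups. The 5 closest were *Taz*, here the tafazzin gene of mitochondrial cardiolipin (r = 0.986), *Setd1a*, a histone methyltransferase (0.975), *Zfp598*, a ubiquitin ligase of stalled ribosomes (0.966), *Pla2g4b*, a phospholipase (0.962), and *Eme2*, an endonuclease subunit (0.96). With the group means removed, r was 0.946, 0.874, 0.886, 0.914 and 0.801. In all 5, control culture 3 was the lowest of the 8 in TPM, as in *Vdr*, and the groups did not overlap. All values of 1 culture share its library and depth.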

How the data were processed

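RNA from 8 tubuloid cultures was sequenced by the submitters from SMART-Seq v4 libraries with poly-A selection (75 bp paired ends), over lanes whose assignment to cultures is not given in the sources used here. The authors aligned reads with STAR to mm10 and deposited, per RefSeq transcript, whole-number counts without normalization, FPKM (the counts divided by length and total) and TPM. The submitters' processing notes also name featureCounts and DESeq2. Strand handling is not given in the sources used here. The FPKM values served only to obtain transcript lengths.

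Counts were summed per symbol and fitted with edgeR 4.0.16 in R 4.3.3 (filterByExpr defaults, TMM, glmQLFit and glmQLFTest, two-sided, with p-values adjusted over 16557 genes by Benjamini-Hochberg and a threshold of 0.05). The standard error is the log2 fold change divided by the root of the F statistic. DESeq2 1.42.0, run on all genes with a count, and limma-voom (limma 3.58.1) were alternatives. Among other alternatives, a spline over length with 5 degrees of freedom per culture, entered as offsets, was chosen after seeing the data. A read shared by transcripts of 1 gene was entered for each, so summed counts hold it more than once. TPM values are those of the most counted transcript. CPM uses TMM library sizes. Fits were tested on simulated counts.

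The 10 genes and all lists were chosen with earlier results of these data known. Besides the 10, the text names, per pathway list, up to 6 genes called by DESeq2 (edgeR called none) and the 3 with the highest mean TPM, per marker list the 2 highest and markers at 0, and the 5 genes most correlated with *Vdr*. Of the genes that this rule names, 2 are not reported here. *Calb1*, *Lrp2*, *Lrp5*, *Rxrb*, *Kl*, *Scnn1g*, *Slc8a1*, *Aqp2*, *Aqp3*, *Avpr2*, *Slc34a1* and *Slc34a3* were named after their values were seen. The kind of culture was set by the larger of *Xist* TPM and the summed TPM of 4 Y-linked genes. Coordinates and promoters are from RefSeq (GRCm38.p6), the build that mm10 represents.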

Additional observations from a re-analysis of the deposited data

Results flagged for a closer look

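Among 20 groups of 4 values, the TPM of the 10 genes in each condition, 1 held a culture far from the other 3 by Dixon's criterion, where chance gives about 1. This was *Rxra* in GDNF culture 17, at 8.24 TPM, above the other GDNF cultures at 7.13 to 7.27 TPM. The fitted log2 fold change of *Rxra* was 0.25 without this culture.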

How the results depend on the processing

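No paired analysis was run, because the groups share no culture numbers and the labels name no pairs. Whether control and GDNF cultures shared preparations is unknown, and the standard errors and overlaps given here take them as unpaired. DESeq2, which differs from edgeR here in its test, its size factors and the genes entered, moved the calls at an adjusted p of 0.05 from 0 to 1253 among all genes and from 0 to 11 in the pathway lists. Entered with only the genes that passed edgeR's filter, an alternative chosen after seeing the data, it called 1346 and 11. All other alternatives gave 0 calls in both: DESeq2 size factors, library size only, no filter on low counts, limma-voom, 1 transcript per gene, kind of culture as a covariate, the length trend and leaving out each culture in turn. Over 179 alternative values of the 9 fitted genes, 15 moved by more than 1 standard error and 13 had the other sign or were at 0.00, 8 of them in *Cyp27b1*, 4 in *Casr* and 1 in *S100g* (0.26 within the cultures with Y-linked RNA). *Vdr* stayed between 0.75 and 1.3, *Atp2b4* between 0.73 and 1.38, *Rxra* between 0.03 and 0.69, *Atp2b1* between 0.01 and 0.72, *Trpv6* between 0.2 and 1.17, *Cyp24a1* between 0.27 and 1.49, *S100g* between -1.03 and 0.26, *Casr* between -0.6 and 1.09 and *Cyp27b1* between -0.88 and 0.61. These values include the log2 ratio of mean TPM, which is not a fit and gave the upper limit for *Vdr*, *Atp2b4*, *Rxra* and *Atp2b1*. Their highest fitted values were 1.13, 1.31, 0.52 and 0.56. TPM summed over transcripts raised the level of *Rxra* from 6.04 to 18.5, and placed *Atp2b4* at 1.43. *Cyp27b1* and *Casr* had under 50 counts in every culture, so their values are imprecise.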
